A study of Caenorhabditis elegans with 2 samples.

Results

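The regions described here are 8377 sites inside introns of protein-coding genes of Caenorhabditis elegans listed by the authors from chromatin immunoprecipitated with the transcription factor CHE-1. They were taken from a list of 30000 regions called on both replicates together, of which 29978 were nuclear. That list takes in background regions as well as peaks, so a place in it does not by itself mark a bound site. A region was included when its summit, the position of highest signal within it, lay inside a protein-coding gene, in no protein-coding exon, and not within 1 kb upstream of any protein-coding transcript start. Summits within 100 bp of a tRNA, snoRNA or snRNA gene were left out. Scores were not used to choose the regions. Of the 8377 regions, 27 lay in a gene but in no intron of a transcript annotated as protein-coding, and 140 lay in more than 1 gene.

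Both samples were chromatin of whole late embryos of mixed sex, of unknown age, collected 6 hours after the worms had been synchronized by bleaching eggs. They are biological replicates 1 and 2 of a single group. Both came from strain OP677, which carries unc-119(tm4063) on chromosome III and the transgene wgIs677, from which CHE-1 is made with GFP and FLAG at its C-terminal end. Chromatin was sheared by sonication and precipitated with an antibody against GFP, so the tagged protein made from the transgene was measured. No untagged strain, other stage or control library was analysed here, and no test between conditions could be made. Whole animals were used, so the cells in which a region was occupied are unknown, and occupancy in fewer cells cannot be told apart from weaker occupancy per cell. Read counts were not part of the lists, and library depth is therefore unknown. The exact 95% intervals given with shares cover counting error over regions only.

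CHE-1 is a zinc finger protein best known for setting the identity of the ASE taste neurons, where it acts through a short site in the promoters of ASE genes. Introns of C. elegans genes can hold enhancers and alternative promoters, and they also hold small genes of their own, among them microRNA genes and genes read by RNA polymerase III. Polymerase III genes of the tRNA kind carry promoter elements inside the transcribed sequence, the A box and the B box, while other genes it reads, such as those of the RNase P RNA and the signal recognition particle RNA, make structural RNAs.

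The first sequences shown are those under 5 of the 6 highest intronic summits, because these summits lay on RNA genes or pseudogenes or held letters of tRNA promoters. Each is a window of 50 bp on either side of the summit base, read from the RefSeq genome WBcel235. In the first 4, capitals mark the A box core GGCNNAGTG or the B box core GTTCNANNC, searched on both strands and chosen after the sequences had been seen. In klp-6 the capitals mark the bases inside the annotated RNA gene srpr-2.2.
unc-104, chrII:7001594-7001694, plus strand: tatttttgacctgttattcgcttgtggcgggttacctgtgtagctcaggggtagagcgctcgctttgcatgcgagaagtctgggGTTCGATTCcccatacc
tba-7, chrIII:11371419-11371519, minus strand: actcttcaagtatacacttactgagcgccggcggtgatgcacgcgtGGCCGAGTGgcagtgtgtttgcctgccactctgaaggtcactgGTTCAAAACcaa
srt-52, chrV:53407-53507, plus strand: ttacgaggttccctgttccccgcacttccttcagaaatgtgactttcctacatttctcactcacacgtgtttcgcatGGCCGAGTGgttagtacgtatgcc
Y57G11C.22, chrIV:14838320-14838420, minus strand: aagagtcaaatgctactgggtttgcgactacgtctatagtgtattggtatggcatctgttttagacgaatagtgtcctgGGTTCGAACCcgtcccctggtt
klp-6, chrIII:5031653-5031753, minus strand: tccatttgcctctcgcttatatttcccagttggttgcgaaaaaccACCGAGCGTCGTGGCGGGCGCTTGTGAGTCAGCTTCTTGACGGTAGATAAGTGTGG

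Intronic regions that meet the rule were common in the list but rare at its top. Of the 8377 intronic regions, 56 belonged to the authors' IDR set (0.668%, exact 95% interval 0.505% to 0.867%), against 2.57% of all 29978 nuclear regions. In replicate 2's own list, that is, without replicate 1, 83 of 8092 intronic regions reached the same height (1.03%). Some regions carry several summits or overlap, and the 56 formed 53 separate loci. The IDR set holds the regions that the authors kept by the irreproducible discovery rate procedure. How the procedure was applied is not stated in the sources used here, and some members ranked unlike in the 2 replicates, as described below. Every member of the set stood at the top of the longer list by score. The score ranged from 32.9 to 628 over the intronic regions, with a median of 46.8, on a scale that the sources used here do not state. Intronic regions made up 27.9% of the nuclear regions and the intronic bases that meet the rule made up 28.0% of nuclear bases, but only 7.27% of the nuclear IDR regions were intronic by the rule. The rule affects this comparison, because it left out intronic summits near tRNA, snoRNA and snRNA genes, many of which ranked high. Within 50 bp of such a gene, 98 of 179 intronic summits were in the IDR set (54.7%). The shares over all nuclear regions still include the 291 IDR regions within 100 bp of such genes, in introns or elsewhere.

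Density per megabase gave the same picture. Introns held 298 regions of any rank per Mb, against 367 in the 1 kb upstream of coding starts, 261 in coding exons and 257 between genes. For IDR regions the densities were 2.00 per Mb in introns, 13.5 per Mb in promoters, 3.99 per Mb between genes and 0.897 per Mb in exons. Introns therefore had more IDR regions per Mb than exons and fewer than promoters or intergenic sequence. Of the promoter regions, 301 of 8188 were in the IDR set (3.68%, interval 3.28% to 4.11%), and this interval does not meet that of the intronic regions.

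The intronic share of the list changed with rank. Among the nuclear regions of rank 1 to 100, 2 of 81 were intronic (2.47%). The share was 4.08% in the next ranks to 200, 5.50% from there to rank 400 and 9.97% from there to the end of the IDR set. Just below the IDR set, to rank 1600, 167 of 809 regions were intronic (20.6%), and beyond rank 3200 the share lay between 28.4% and 29.3%, close to the 28.0% of bases. Intronic regions were thus as frequent as their share of the genome only in the lower ranks.

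**Figure D1:**
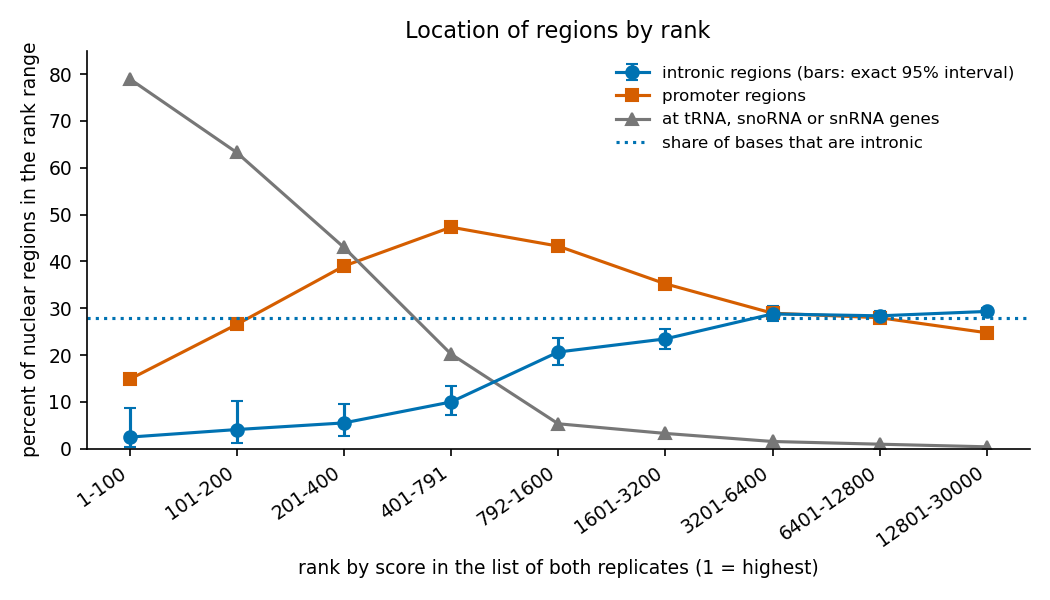
Percent of nuclear regions in each rank range of the list of both replicates (rank 1 is the highest score) whose summits were intronic, in promoters, or within 100 bp of a tRNA, snoRNA or snRNA gene; bars are exact 95% intervals and the dotted line is the intronic share of nuclear bases. The intronic share is 2.47% at ranks 1 to 100 and 29.3% in the lowest range, near the dotted line at 28.0%.

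The highest intronic region lay on the RNase P RNA gene rpr-1 in an intron of ints-8, which encodes a subunit of the Integrator complex (chrI:13463770-13464244). The intron was the first of an annotated transcript, and a transcript start lay 865 bp from the summit, inside the gene. The region scored 628 in the list of both replicates, 354 in replicate 1 and 269 in replicate 2, at ranks 47, 47 and 49. A second summit of the same gene scored 211, at rank 317. RNase P trims the leader of tRNA precursors, and rpr-1 encodes its RNA subunit.

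The next region fell in tba-7, an alpha tubulin gene, on the annotated non-coding RNA T28D6.13 (chrIII:11371318-11371606). It scored 486 in the list of both replicates, 289 in replicate 1 and 194 in replicate 2, at ranks 82, 74 and 102. Its window held both the A box and the B box core, in the order A then B, as printed above. The intron was the first of 4 and 238 bp long, and the region reached past it into an exon.

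The signal recognition particle RNA genes gave the next group. In klp-6, a gene for a kinesin motor of the kinesin-3 family, the summit lay in srpr-2.2 (chrIII:5031625-5031807), with a score of 408 in the list of both replicates, 173 in replicate 1 and 195 in replicate 2. In ckb-2, a choline kinase gene, a summit inside srpr-1.2 scored 227, and another, 37 bp upstream of that RNA gene, scored 246. In the annotation, 6 genes are named as RNase P or signal recognition particle RNA. All 5 intronic regions within 100 bp of such a gene were in the IDR set, which is 8.93% of the 56, and they formed 3 loci. The remaining genes of this kind were srpr-2.1, srpr-1.1 and srpr-3, and their best regions, which were not intronic by the rule, stood at ranks 237, 358 and 4343.

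A tRNA pseudogene lay under the fourth region. The summit was in intron 4 of unc-104, the gene for the kinesin that carries synaptic vesicle precursors (chrII:7001529-7001697), and in the pseudogene C52E12.t1. It scored 403 in the list of both replicates, 225 in replicate 1 and 183 in replicate 2, and its rank was 122 in replicate 1. The unc-104 window, printed above, matched an annotated tRNA gene at 63 of 64 aligned columns (98.4%). Of the 209 annotated tRNA pseudogenes, 100 lay at intronic positions. Intronic summits lay within 100 bp of a tRNA pseudogene in 19 cases, and of these the unc-104 summit alone was in the IDR set.

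The fifth and sixth regions had no non-coding gene within 1 kb of their summits in the annotation used. The region in srt-52, a chemoreceptor gene of the srt family (chrV:53344-53623), scored 388 in the list of both replicates, 217 in replicate 1 and 172 in replicate 2, and its window held the A box core. The region in Y57G11C.22 (chrIV:14838249-14838480) scored 330 in the list of both replicates and 207 in replicate 1, and ranked 137 in replicate 1 and 271 in replicate 2. The Y57G11C.22 window held the B box core and aligned to a tRNA gene at 45 of 62 columns (72.6%). Of the 6 highest intronic regions, 4 thus lay on an annotated non-coding gene or tRNA pseudogene and the other 2 held letters of a tRNA promoter.

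These letters also occurred in many other introns. The B box core was in 3 of 56 intronic IDR windows (5.36%, interval 1.12% to 14.9%), in 2.92% of the 8321 intronic windows outside the IDR set and in 2.94% of the tiles of the same length that cover intronic sequence, so both shares lie within the interval. The A box core was in 2 of 56 (3.57%, interval 0.435% to 12.3%), in 1.08% outside the IDR set and in 0.453% of tiles. Longer forms of the cores, with 1 more base at each end (G and C around the B box, T and G around the A box), were also searched. The longer B box was in 5.36% of IDR windows, 0.565% of the other intronic windows and 0.263% of tiles, and the longer A box in 3.57%, 0.385% and 0.104%, so the difference from other introns depended on the length of the motif. The tba-7 window was alone among the IDR windows in holding both. An alignment score of at least 25 to any of 200 distinct tRNA gene sequences was reached by 2 of 56 IDR windows (3.57%). These were the unc-104 and Y57G11C.22 windows, while those of srt-52 and tba-7 did not reach it. Of the 8321 other intronic windows, 27 did (0.324%). The box cores were chosen from the highest windows, so the shares only describe where else they occur.

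The other regions among the 20 highest scored from 169 to 245. They included 2 in ppfr-1, which encodes a regulatory subunit of protein phosphatase 4, with scores of 245 and 185. Another 2 were in mdt-26, a Mediator subunit gene, with scores of 226 and 169. Single regions were in usp-39, a ubiquitin-specific protease family gene (234), in the transmembrane collagen gene col-99 (212), in Y47H10A.4 (203), in W05H12.1 (202), in C28A5.6 (188), in the nuclear hormone receptor gene nhr-17 (179) and in F09A5.3 (178). Those in col-99 and nhr-17 lay 134 bp and 132 bp from a tRNA gene, and that in C28A5.6 lay 107 bp from a snRNA gene, all just beyond the 100 bp of the rule.

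The values of the members just inside and just outside the limits of the rule were as follows. Of 43 intronic regions with a tRNA, snoRNA or snRNA gene more than 100 and up to 200 bp away, 4 were in the IDR set (9.30%) and the median score was 60.8. Of 37 regions with such a gene more than 50 and up to 100 bp away, which the rule left out, 13 were in the IDR set (35.1%) and the median score was 84.5. At the other limit, 6 of 313 intronic regions from 1000 to 1200 bp upstream of a start were in the IDR set (1.92%), and 6 of 325 regions from 800 to 1000 bp upstream, which the rule left out, were (1.85%), with median scores of 47.9 and 48.1. The lowest intronic region of the IDR set was in slo-1, a calcium-activated potassium channel gene, with a score of 128 at rank 783. The highest intronic region outside it was in gmeb-2, named for that place in the order, with a score of 127 at rank 793.

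The 2 replicates were compared by rank, since their scores ran on different ranges. For 49 of the 56 intronic IDR regions, both replicate lists held a summit within 100 bp (87.5%, interval 75.9% to 94.8%). The same held for 2321 of all 8377 intronic regions (27.7%), against 30.2% of all nuclear regions. By rank of the intronic regions, it was 83.2% from the end of the IDR set to rank 1600, 64.9% from rank 3200 to 6400 and 10.0% in the lowest range, beyond rank 12800. Most low-ranked intronic regions therefore had no summit at the same place in both replicates.

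A stricter count asked whether a region overlapped the highest regions of each replicate's own list, taken to the length of the IDR set. Of the 56 regions, 35 overlapped those of both replicates (62.5%, interval 48.5% to 75.1%), against 69.1% of nuclear IDR regions. A further 8 overlapped those of replicate 1 only, 11 those of replicate 2 only and 2 those of neither. Ranks of the nearest replicate summits differed by more than a factor of 2 in 17 of the 49 regions with a summit in both lists, and the median ratio of ranks was 1.60. With the best replicate region that overlapped the region, in place of the nearest summit, this held for 13 of the 49, with a median ratio of 1.44. Spearman's rho between the scores of the nearest replicate summits was 0.444 over these 49 regions, which share their libraries and were chosen by a score of both together. The region in kin-20, a casein kinase gene named after its values were seen, had its nearest summit at rank 328 in replicate 1 and 3521 in replicate 2, but overlapped a region of rank 525 in replicate 2. The highest rpr-1 region and the unc-104 region ranked nearly alike in both.

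**Figure D2:**
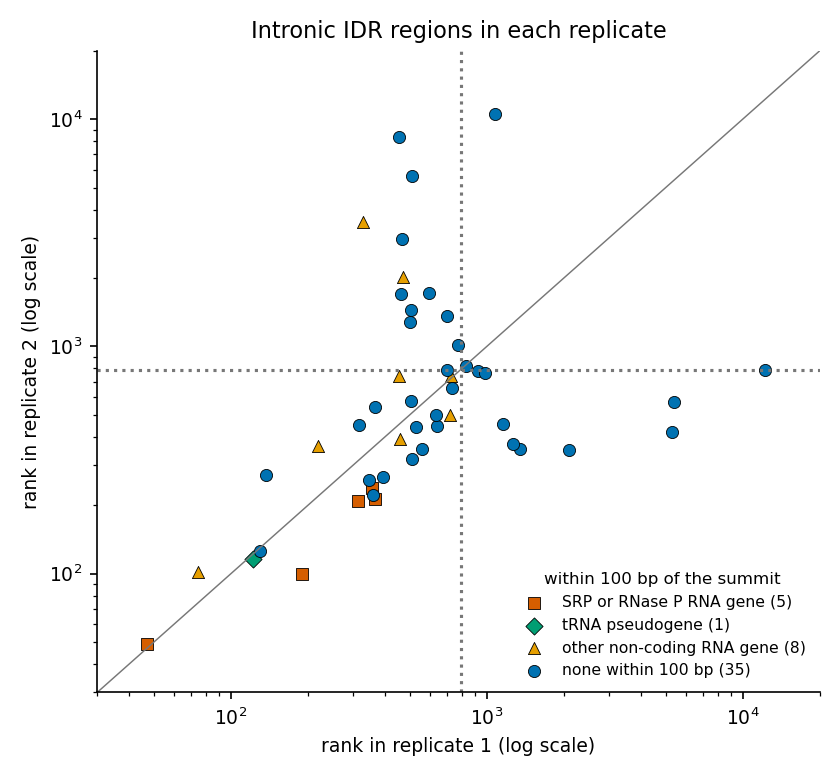
Rank of the nearest summit of 49 intronic IDR regions in the list of replicate 1 (horizontal) and replicate 2 (vertical), both on log scales, for regions with a summit within 100 bp in each list; symbols give the non-coding gene within 100 bp, dotted lines mark the length of the IDR set and the diagonal marks equal ranks. The 5 summits at RNase P or signal recognition particle RNA genes lie inside both dotted lines, that is, within that length in both replicates.

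Long introns held a larger share of the intronic IDR regions than of intronic sequence. The median length of the intron around an IDR summit was 3445 bp, against 1074 bp for the other intronic regions and 895 bp for intronic bases. Of the 56 IDR regions, 32 lay in introns of at least 2 kb (57.1%), against 32.7% of the other intronic regions. The IDR density was 4.39 per Mb in introns of 5 kb or longer and 4.10 per Mb in those of 2 to 5 kb. It was 1.32 per Mb in introns of 1 to 2 kb, 1.97 per Mb at 500 to 1000 bp and 0.673 per Mb at 100 to 500 bp. No IDR region lay in an intron under 100 bp, a class that held 9.22% of intronic bases. Regions of any rank were spread more evenly, with 405 per Mb in the longest class and 187 per Mb in the shortest.

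**Figure D3:**
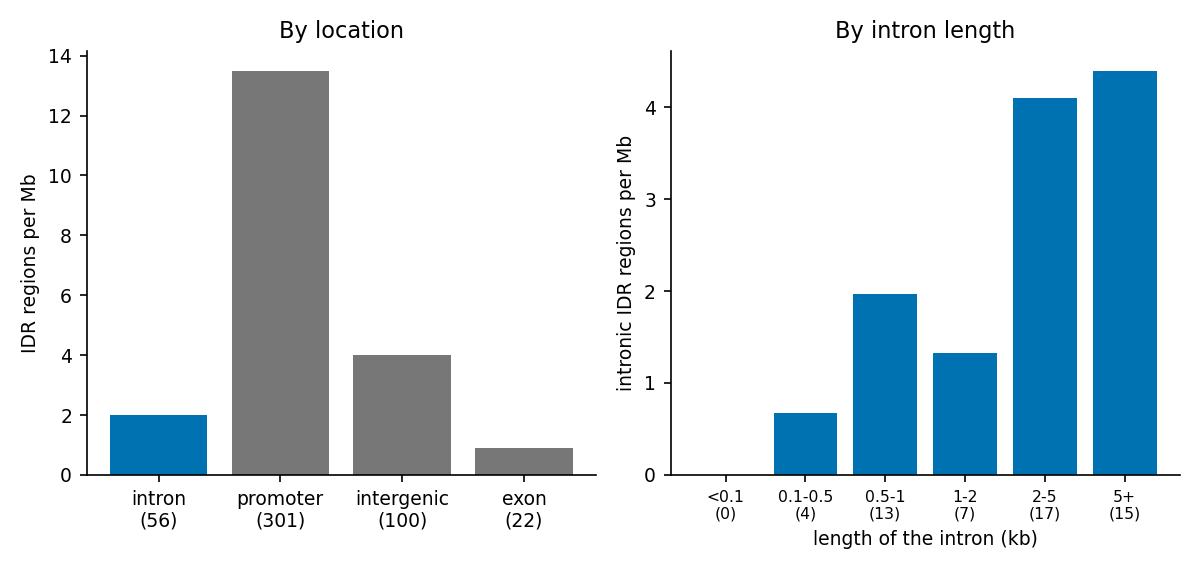
Left, IDR regions per Mb of sequence by location; right, intronic IDR regions per Mb of intronic sequence by length of the intron in kb, with the number of regions in brackets. Introns hold 2.00 IDR regions per Mb against 13.5 in promoters, and the densities in introns of 2 to 5 kb and of 5 kb or longer are 4.10 and 4.39 per Mb.

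A first intron of any transcript held 23 of the 56 IDR summits (41.1%, interval 28.1% to 55%), against 34.1% of the other intronic regions and 30.8% of intronic bases, so the base share lies within the interval. The share depended on how a first intron was defined, and was 26.8% when only the longest transcript of a gene was used. In a shorter set of the highest regions it was 4 of 16 (25%). The median distance to the nearest transcript start was 1684 bp for IDR regions, 1674 bp for the other intronic regions and 1598 bp for bases. Close to a start, however, intronic IDR regions were sparse. This covers only sequence downstream of starts, because the rule left out the 1 kb upstream of them. Of 481 summits that were otherwise intronic but up to 200 bp upstream of a start, 10 were in the IDR set (2.08%). Within 500 bp of a start there were 2 of the 56 (3.57%), or 0.525 per Mb, in 13.6% of the intronic bases. The density was 2.42 per Mb from 500 to 1000 bp and between 1.95 and 3.26 per Mb in the bins farther away. Regions of any rank had 279 per Mb within 500 bp and between 270 and 333 per Mb farther away. An exon was included in 11 of the 56 IDR regions (19.6%), against 49.9% of the other intronic regions.

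The IDR regions fell into 50 host genes. The gene with the most was ppfr-1, with 3 of them among 10 intronic regions, in 20 kb of intronic sequence. Their summits lay 6803, 8462 and 16886 bp from the start of the gene and scored 245, 136 and 185. The other 7 scored from 35.2 to 77.3. The highest lay within anr-20, an antisense RNA gene annotated from 6434 to 7524 bp, and the last lay 231 bp upstream of the microRNA gene mir-2. The genes ints-8, let-526, ckb-2 and mdt-26 had 2 IDR regions each, but the pairs in ints-8, ckb-2 and mdt-26 overlapped, and that in ints-8 was 2 summits of the same interval. The let-526 gene encodes an ARID subunit of the SWI/SNF chromatin remodelling complex.

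**Figure D4:**
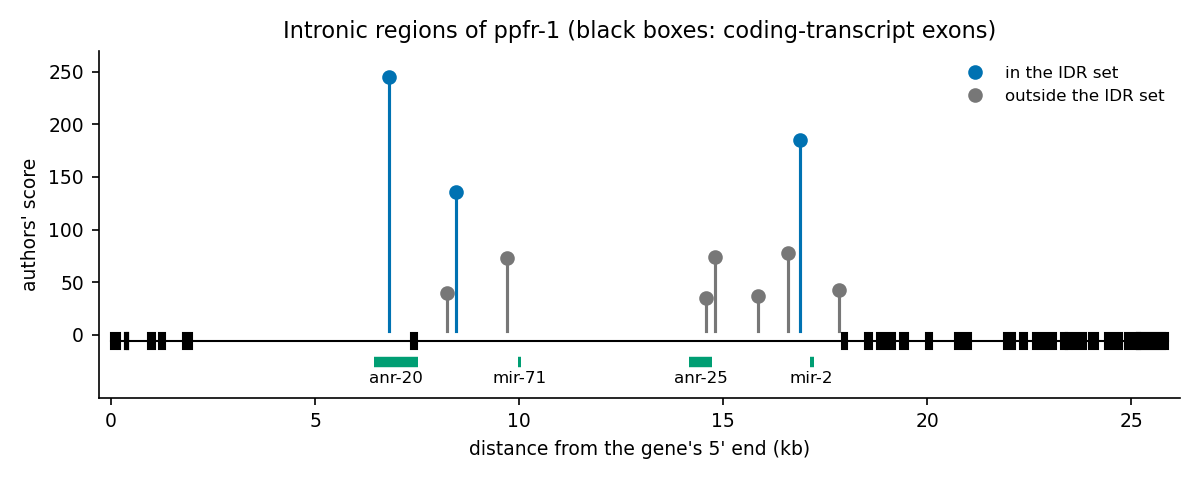
Score of the 10 intronic regions of ppfr-1 against distance in kb from the start of the gene, with coding-transcript exons as black boxes and non-coding genes in green. The 3 IDR regions score 136 to 245 and the other 7 score 35.2 to 77.3.

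The genes with the most intronic regions of any rank were a different group. The gene hmr-1, which encodes the classical cadherin, had 34 regions in 45.0 kb of intronic sequence, and its highest stood at rank 1331. It was followed by Y48C3A.5 with 26 regions, the spectraplakin gene vab-10 with 25 and the insulin receptor gene daf-2 with 24. None of these had an IDR region, and the best ranks of vab-10 and daf-2 were 4757 and 6806. The next, aakg-1, a gene for a gamma subunit of AMP-activated kinase, had 23 regions, of which 1 was in the IDR set at rank 737. The che-1 gene itself had no intronic region in 2.48 kb of intronic sequence, and unc-119 had 3, the best at rank 1557. What the transgene and unc-119(tm4063) of the strain meant for regions at these genes was not tested. In all, 4052 of 17874 genes with intronic sequence had a region (22.7%), 2356 of them had a single region and 72 had at least 10.

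Non-coding genes lay near a larger share of the IDR summits than of the others. A non-coding gene other than a piRNA lay within 100 bp of 16 of the 56 IDR summits (28.6%), against 520 of the 8321 other intronic summits (6.25%). The nearest such gene was an RNase P or signal recognition particle RNA in 5 of the 16, the unc-104 pseudogene in 1, an antisense RNA in 2, in ppfr-1 and let-526, and a gene of the general ncRNA class in 8. Counting every gene within 100 bp, this general class lay near 10 of the 56 (17.9%), against 5.52% of all intronic summits and 2.15% of intronic bases.

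A microRNA gene lay within 1 kb of 6 of the 56 IDR summits (10.7%), against 52 of the 8321 other intronic summits (0.625%) and 0.374% of intronic bases. MicroRNAs are short RNAs that repress messenger RNAs through a seed, and several C. elegans microRNA genes sit in introns. In ppfr-1 the summit lay 231 bp upstream of mir-2, in F09A5.3 120 bp upstream of mir-54, in K01F9.2 251 bp upstream of mir-90 and in Y67D8A.2 134 bp upstream of mir-58a. In Y56A3A.7 it lay 394 bp downstream of mir-86, and in ugt-50 713 bp downstream of mir-62. The summit was thus upstream in 4 cases and downstream in 2, and the microRNA was on the strand of its host in 5. Their scores ran from 137 at mir-58a to 185 at mir-2. The F09A5.3 summit lay beside a cluster of 4 microRNA genes within 1 kb. Host genes of this paragraph other than ppfr-1 and F09A5.3 were named after their values were seen.

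The intronic IDR windows were richer in G and C than intronic sequence. Their median was 49.5% (quartiles 43.6% and 52.5%), against 38.6% for the other intronic regions and 32.7% for intronic tiles. Promoter and intergenic IDR windows had the same median of 49.5%. Below the IDR set the intronic median was 46.5% to rank 1600, 44.6% from there to 3200, 41.6% to 6400, 39.6% to 12800 and 37.6% beyond, so it was lower at each lower rank range. The mean number of CpG per intronic IDR window was 5.57, against 4.01 for the other intronic regions and 2.87 for tiles. These counts were not scaled to the G and C content of the windows. How GC content affected recovery or amplification of fragments was not tested. Over 50% of the bases were masked as repeats in 9 of the 56 IDR windows (16.1%), against 41.3% of the other intronic windows and 47.2% of tiles.

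For the short core letters of the CHE-1 site, the interval for intronic IDR windows holds the shares found elsewhere in introns. Longer forms of the site were not searched. The letters GAAACC or GAAGCC, on either strand, were in 4 of 56 IDR windows (7.14%, interval 1.98% to 17.3%), against 7.64% of the other intronic windows, 6.52% of intronic tiles and 8.56% of all nuclear windows. The number is small, and the share moved to 3 of 16 (18.75%) in the shorter set and to 2 of 63 (3.17%) without replicate 2. The 4 windows belonged to ints-8, mdt-26, W05H12.1 and hlh-30. The mdt-26 and hlh-30 windows are shown as examples of each form of the site, in capitals.
mdt-26, chrII:5661771-5661871, plus strand: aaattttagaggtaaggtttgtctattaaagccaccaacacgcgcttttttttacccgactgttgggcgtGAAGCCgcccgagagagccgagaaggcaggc
hlh-30, chrIV:4020082-4020182, plus strand: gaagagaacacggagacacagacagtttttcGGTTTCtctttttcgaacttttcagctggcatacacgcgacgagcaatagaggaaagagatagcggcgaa

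Of the letters not yet described, CGCACA had an interval above the shares in other introns, and runs of AC are described beside it. Runs of 6 or more AC in a row, on either strand, were in 6 of 56 IDR windows (10.7%, interval 4.03% to 21.9%), in 0.613% of the other intronic windows and in 0.142% of tiles. They were also in 2.66% of promoter IDR windows and 4% of intergenic IDR windows, against 0.507% of the other promoter windows. Of the 40 intronic IDR windows with no non-coding gene other than a piRNA within 100 bp, 3 had the run (7.5%). The letters CGCACA were also in 6 of 56 (10.7%, interval 4.03% to 21.9%), against 3.44% of the other intronic windows and 2.14% of tiles, while promoter IDR windows had them in 23.6%. CACGTG, a palindromic E-box, was in 3 of 56 (5.36%, interval 1.12% to 14.9%). This interval holds the 1.71% of the other intronic windows and the 1.34% of tiles. CAGCTG, another palindromic E-box, was in 1 of 56 (1.79%), against 1.71% of the other intronic windows. The letters TATAAA were in 2 of 56 (3.57%, interval 0.435% to 12.3%), against 8.70% of the other intronic windows, which lies within the interval, and 12.6% of tiles, which lies just above it. The AC run was chosen after windows had been seen, so its shares only describe where it occurs. The windows below show it in capitals in kin-20, which also has a run of GA, and in ast-1, aakg-1 and Y56A3A.7, followed by miz-1 and T18D3.9 with CGCACA. After these, F09A5.3 beside the mir-54 cluster has each CG in capitals and a GC content of 66.3%, and usp-39, a window wholly masked as repeat, has its repeated AACCGGC in capitals. The genes hlh-30, miz-1 and T18D3.9 were chosen after their windows were seen. The ast-1 gene encodes an ETS factor of dopamine neurons.
kin-20, chrX:15275483-15275583, plus strand: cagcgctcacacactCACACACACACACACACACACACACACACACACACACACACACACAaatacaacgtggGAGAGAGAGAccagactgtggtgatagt
ast-1, chrII:4130441-4130541, plus strand: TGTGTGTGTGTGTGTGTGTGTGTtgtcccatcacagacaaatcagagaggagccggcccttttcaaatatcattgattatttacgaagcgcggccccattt
aakg-1, chrIII:12558434-12558534, plus strand: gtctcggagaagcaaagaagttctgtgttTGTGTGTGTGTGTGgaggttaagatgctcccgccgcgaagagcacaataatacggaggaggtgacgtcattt
Y56A3A.7, chrIII:11936193-11936293, plus strand: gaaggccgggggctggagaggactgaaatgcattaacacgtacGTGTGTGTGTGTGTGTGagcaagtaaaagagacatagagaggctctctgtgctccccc
miz-1, chrIV:10821555-10821655, plus strand: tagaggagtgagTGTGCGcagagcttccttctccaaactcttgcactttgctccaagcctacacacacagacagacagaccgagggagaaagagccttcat
T18D3.9, chrX:12452360-12452460, plus strand: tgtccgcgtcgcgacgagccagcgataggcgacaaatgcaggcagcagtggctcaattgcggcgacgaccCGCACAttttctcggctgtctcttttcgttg
F09A5.3, chrX:13145164-13145264, plus strand: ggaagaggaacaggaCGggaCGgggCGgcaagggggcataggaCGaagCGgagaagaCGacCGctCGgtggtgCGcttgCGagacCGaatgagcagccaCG
usp-39, chrII:2570626-2570726, plus strand: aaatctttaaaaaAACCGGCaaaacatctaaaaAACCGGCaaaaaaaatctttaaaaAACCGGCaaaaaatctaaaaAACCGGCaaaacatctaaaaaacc

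**Figure D5:**
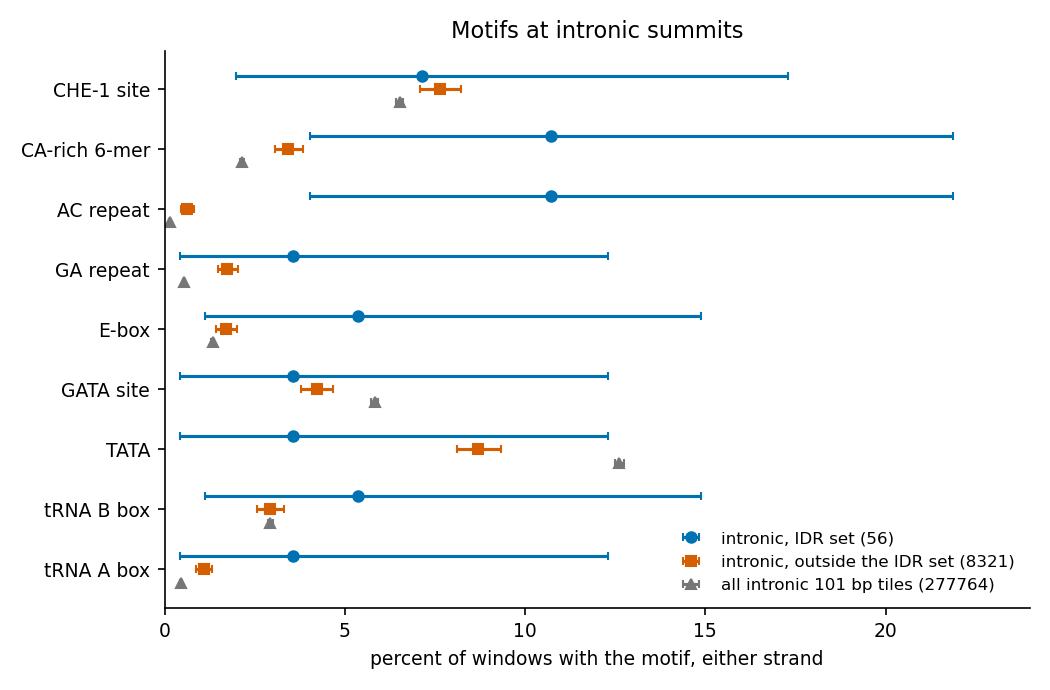
Percent of summit windows and tiles that hold each set of letters on either strand, for 56 intronic IDR summits, 8321 other intronic summits and all intronic tiles; bars are exact 95% intervals. The CA-rich set is CGCACA, the E-box CACGTG, the GATA site AGATAA and TATA is TATAAA. The AC repeat and the tRNA boxes were chosen after windows had been seen. The AC repeat was in 10.7% of IDR windows and 0.142% of tiles. The CHE-1 site, searched only as GAAACC or GAAGCC, was in 7.14% and 6.52%.

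Genes of tissue and function lists often had an intronic region, but few had one in the IDR set. Of 393 genes in any list, 172 had an intronic region (43.8%), against 4052 of all 19973 genes (20.3%), and the listed genes had more intronic sequence, with a median of 1.85 kb against 0.574 kb. Per 100 kb of intronic sequence the listed genes had 43.6 regions, against 29.8 for all genes. In the IDR set, 4 listed genes had a region (1.02%), against 50 of all genes (0.250%). These shares are per gene and do not allow for intronic length, which was 1520 kb for the listed genes and 28557 kb for all genes. The 4 listed genes were unc-104, where the summit lay in a tRNA pseudogene, ast-1, slo-1 and mig-1, which encodes a Frizzled receptor for Wnt signals.

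By list, regions of any rank were found in 12 of 18 pan-neuronal genes, 15 of 29 regulators of neuron identity, 16 of 23 muscle genes and 11 of 23 epidermis and cuticle genes. They were in 4 of 11 pharynx genes and in 1 of 18 intestine genes. The pan-neuronal genes had 33.4 regions per 100 kb and the neuron identity regulators 35.7, against 42.3 for muscle and 62.1 for epidermis, so the neuronal lists were not the densest. Among functions, 29 of 42 axon guidance and adhesion genes, 27 of 40 signalling genes and 17 of 22 cytoskeleton genes had a region, and the last had 63.4 per 100 kb. Hox and homeobox genes had a region in 12 of 22, ion channels in 23 of 40, chromatin and RNA genes in 12 of 23 and heat shock chaperones in 1 of 7. The chaperones had 82.0 regions per 100 kb, from 3 regions in 3.66 kb, and the intestine genes 5.77 per 100 kb, from 1 region in 17.3 kb, so both densities rest on few regions. Ribosome and translation genes had a region in 1 of 84, within 5.78 kb of intronic sequence in all.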

How the data were processed

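Chromatin immunoprecipitation sequencing was done on 2 biological replicates of 1 group. The authors deposited region lists in build ce11, 1 for each replicate and 1 for both together, each of 30000 regions, and an IDR set of 791. The ranking value is a score of unstated scale in the deposited files, used only within a list. No label or file header used here names the caller, the aligner or the cut-off of the IDR step. Accompanying text notes and ce10 lists were not used here.

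Summits were placed in the Ensembl release 115 annotation of WBcel235, whose bases are those of ce11, and sequence was read from the RefSeq genome. Windows were 101 bp around the summit, and letters were searched on both strands. The 277764 intronic tiles of that length did not overlap. tRNA similarity used a local alignment, with a minimum score of 25. Intervals are exact (Clopper-Pearson) 95% intervals and cover counting error over regions only. With 1 group there was no test, and region counts and shares are descriptions. The code for the intronic rule was tested on a simulated annotation. The software was pandas 2.3.3 and numpy 2.4.6 under Python 3.11.15, with scipy 1.17.1 for intervals and matplotlib 3.10.9 for plots. Coordinates are 1-based.

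The regions, gene lists and alternatives were chosen with earlier results of these data known. Genes were named by rule: the 20 highest intronic regions, the 5 genes with the most IDR regions, the 5 with the most of any rank, up to 4 genes of each list with an IDR region, and che-1 and unc-119. Others were named after their values were seen. Alternatives changed the upstream distance, the distance to non-coding genes, the transcripts, the summit position, the height of the set (the highest 395 or 1582 regions in place of the 791 of the IDR set), the window and the replicates.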

Additional observations from a re-analysis of the deposited data

How the results depend on the processing

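The number of intronic regions stayed between 6778 and 9209 under every alternative run, against 8377. A shorter set of the highest regions held 0.191% of the intronic regions and a longer set 2.63%, against 0.668% for the IDR set. With 1 replicate's own list the share was 0.753% to 1.03%. Overlap with both replicates was 48.2% by summits within 100 bp and 85.7% with the longer set of each replicate, against 62.5%. The first-intron share was 26.8% by the longest transcript and 25% in the shorter set, against 41.1%, and 41.3% to 42.2% with 1 replicate left out. Median GC was 49.5% to 50.5% with 1 replicate left out, and 48.5% without summits near non-coding RNA genes, an alternative chosen after seeing the data. The CHE-1 site share was 18.75% (3 of 16) in the shorter set, against 7.14%, and 3.17% to 6.02% with 1 replicate left out. Listed host genes numbered 172 for all intronic regions and 1 for the shorter set, against 4. The cause of these differences was not tested, beyond the smaller or larger sets. Longer forms of the box cores, added after seeing the data, lowered the B box share of the other intronic windows to 0.565%, against 2.92%. Shares were judged against the interval, GC against the spread between replicates, and counts by a fixed ratio to the main value. By these limits, 32 of 48 alternative values stayed and 16 moved.

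No paired analysis was possible because both samples belong to 1 group. The depth of the libraries is unknown, so what a low rank means for detection cannot be stated, and no control library was analysed here.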

Other observations

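Chromosome III held 15 of the 56 intronic IDR regions (26.8%) and 16.3% of the intronic bases, and chromosome I held 14 (25%) and 18.2%. Chromosome V held 4 (7.14%) and 17.8%. Regions of any rank ran from 238 per Mb of intronic sequence on chromosome IV to 375 per Mb on chromosome III.

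In 5 of the 56 intronic IDR windows every base was masked as repeat, and 4 of the 56 regions reached, beyond their summits, to within 100 bp of a tRNA, snoRNA or snRNA gene. Without those 4, the IDR share of intronic regions was 0.625%, an alternative chosen after seeing the data.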
